A study of Mus musculus with 12 samples.

Results

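The genes described here are 43 mouse genes of mitosis and the spindle checkpoint, chosen by symbol and found in a table of 55487 Ensembl genes by 12 RNA sequencing libraries. All 43 had a row, all were annotated as protein-coding, and all passed the filter on low values (a normalized count of 10 or more in 3 or more libraries). The libraries were made from male germ cells of the testis, isolated from Mvh-Venus transgenic mice, in which a fluorescent protein marks the germ line. They fell into 4 stages of 3 libraries each, of which E13.5 and E16.5 are days of fetal life, P0 is birth and P3 lies 3 days later. Titles and source names call every sample wild type, whereas the genotype tag reads Morc1 (+/-) at E13.5 and P0 and Morc1 (-/-) at E16.5 and P3, so samples were grouped by stage only. Whether animals were pooled, and whether the libraries of a stage came from separate animals, is not given in the sources used here, so p-values measure the spread between libraries, which may be technical.

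Mitosis begins when the kinase CDK1, bound to A- and B-type cyclins, is switched on. Kinetochores then attach chromosomes to the spindle, the spindle checkpoint holds back anaphase until attachment is complete, and the anaphase-promoting complex ends the wait by marking securin and cyclin B for destruction. Male germ cells divide after they reach the fetal testis, stop dividing partway through fetal life and divide again after birth. Genes of mitosis are usually transcribed late in the cell cycle, and their promoters are known to be bound by the MuvB complex at a short element called the cell cycle homology region (CHR), often with CCAAT boxes upstream.

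Reads assigned to genes numbered 40946616 to 51533747 per library. Values are normalized counts, that is reads of a gene divided by 1 size factor per library, and libraries are named by stage and by the number 1, 3 or 4 of their column head. Morc1 itself ran from 1621 to 1830 normalized counts at E13.5, 28328 to 32917 at E16.5, 7280 to 7708 at P0 and 10584 to 11129 at P3, so the stages tagged as lacking it were not the lowest. Which label of genotype is right was not tested. The 10 male germ cell markers summed to 258933 to 310435 normalized counts per library at the other stages and to 158382 to 170126 at P0. The P0 libraries also had the lowest totals over all genes, 23044303 to 24866058 normalized counts. Totals of the remaining libraries ranged from 36124232 to 54397541. The lower marker sum therefore does not show that germ cell markers held a smaller share of the reads at P0. The 10 Sertoli cell markers, of the somatic cells that surround the germ cells, summed to 1608 to 2509 at E13.5, 3109 to 6520 at E16.5, 11696 to 22256 at P0 and 5352 to 7443 at P3, with 1 of the 10 at no more than 3 reads in every library at E13.5 and at P3. Of their 9 tested genes, 4 were higher and 0 lower at E16.5 than at E13.5, where 45.5% and 34.6% of all genes were. All 9 were higher at P0 than at E16.5, where 27.6% of all genes were. The 9 peritubular and interstitial markers summed to 337 to 377 at E13.5 and to 5762 to 6242 at P0, and the 7 Leydig cell markers ran from 703 to 7922 within E16.5 and from 1344 to 6620 within P0. The sum of the 9 macrophage and endothelial markers ran the other way, from 4503 to 5287 at E13.5 to 1191 to 1406 at P0 and 868 to 1004 at P3. Most of the single genes did not follow that sum. Of the 8 tested, 6 were higher and 1 lower at E16.5 than at E13.5, against 45.5% and 34.6% of all genes. In the P0 libraries 5 of the 8 exceeded E13.5 and 1 was below it, against 45.7% and 40.5% of all genes. By P3 only 3 were higher and 2 lower than at E13.5. Over all genes 39.2% rose and 31.2% fell in that last comparison, so its counts resemble those of all genes. All 7 mast cell markers were at 0 at E13.5, and they summed to 1520 to 3235 at P0.

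Transcripts of the mitosis genes were abundant at E13.5, lower at E16.5, lowest at P0 and high again at P3. Of all assigned reads, the 43 genes together held 1.254% to 1.287% at E13.5, 0.5709% to 0.5959% at E16.5, 0.2955% to 0.3371% at P0 and 1.021% to 1.041% at P3, with no overlap between stages. These shares do not depend on the size factors. In a bulk sample, fewer dividing cells and less of these RNAs per cell cannot be told apart. At P0, libraries 1, 3 and 4 held shares of 0.3371%, 0.3115% and 0.2955%, and their Sertoli markers summed to 22256, 20987 and 11696 normalized counts. Sertoli cells also divide around birth, and their part in the P0 level was not tested.

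**Figure D1:**
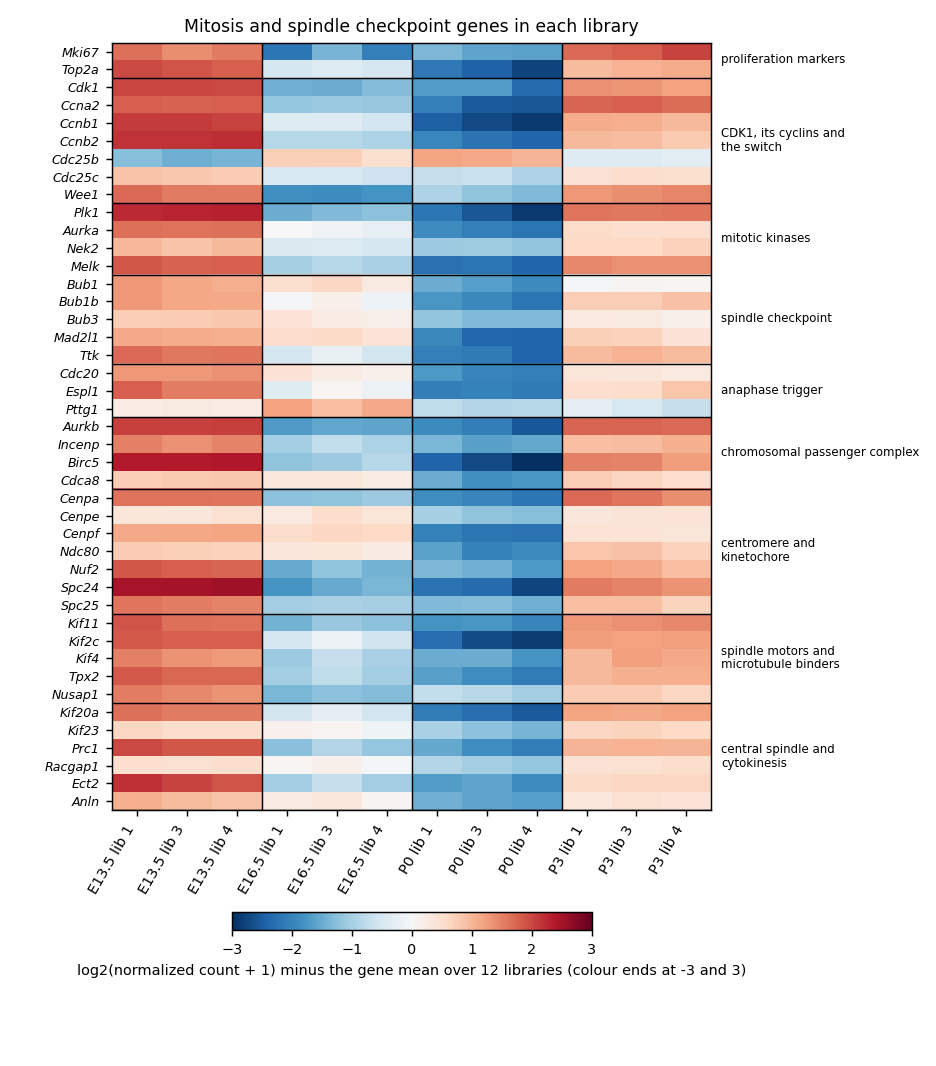
Each row is a gene and each column a library; colour shows log2(normalized count + 1) minus the gene's mean over the 12 libraries, with genes grouped by role. P0 is the lowest stage for 39 of 43 genes and E13.5 the highest for 38, while Cdc25b runs the other way.

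Gene by gene, 40 of 43 members fell between E13.5 and E16.5 and 2 rose, at a Benjamini-Hochberg adjusted p under 0.05 in limma's moderated test over all 22384 genes tested. Among all genes tested, 34.6% fell and 45.5% rose in this comparison. The median log2 fold change was -2.30 for the members and 0.31 for all genes. Between E16.5 and P0, 38 members fell and 3 rose, where 33.4% of all genes fell and 27.6% rose, with medians of -1.24 and -0.01. Between P0 and P3, 42 members rose and 1 fell, where 40.1% of all genes rose and 36.4% fell, with medians of 2.69 and 0.05. When libraries were scaled to equal totals instead, 33 members fell and 3 rose at E16.5, 26 fell and 7 rose at P0, and 41 rose and 2 fell at P3. Of the 23221 genes tested with equal totals, 5506 fell and 12911 rose at E16.5, and 3443 fell and 12743 rose at P0. At P3, 4577 of them rose and 13565 fell. That scaling moved the median of all genes by 0.53, 0.69 and -0.91 in these 3 comparisons, and median-of-ratios factors moved it by 0.24, 0.27 and -0.47.

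Only the comparisons of E13.5 with P0 and of E16.5 with P3 stay within 1 genotype tag. In the others tag and stage change together and cannot be told apart. From E13.5 to P0, both tagged (+/-), 42 members fell and 1 rose, against 40.5% and 45.7% of all genes. From E16.5 to P3, both tagged (-/-), 35 members rose and 4 fell, against 34.2% and 35.2% of all genes. At P0 the median member stood at 10.1% of its E13.5 level, and at 22.7% with equal library totals. At P3 it stood at 67.7% of its E13.5 level, or 85.0% with equal totals. The lowest of these at P3 was Ect2, at 36.9%, and the highest Cdc25b, at 202%. The libraries of a stage lay closest together at E13.5, where the median coefficient of variation over the members was 3.21%, and furthest apart at P0, where it was 12.2%.

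**Figure D2:**
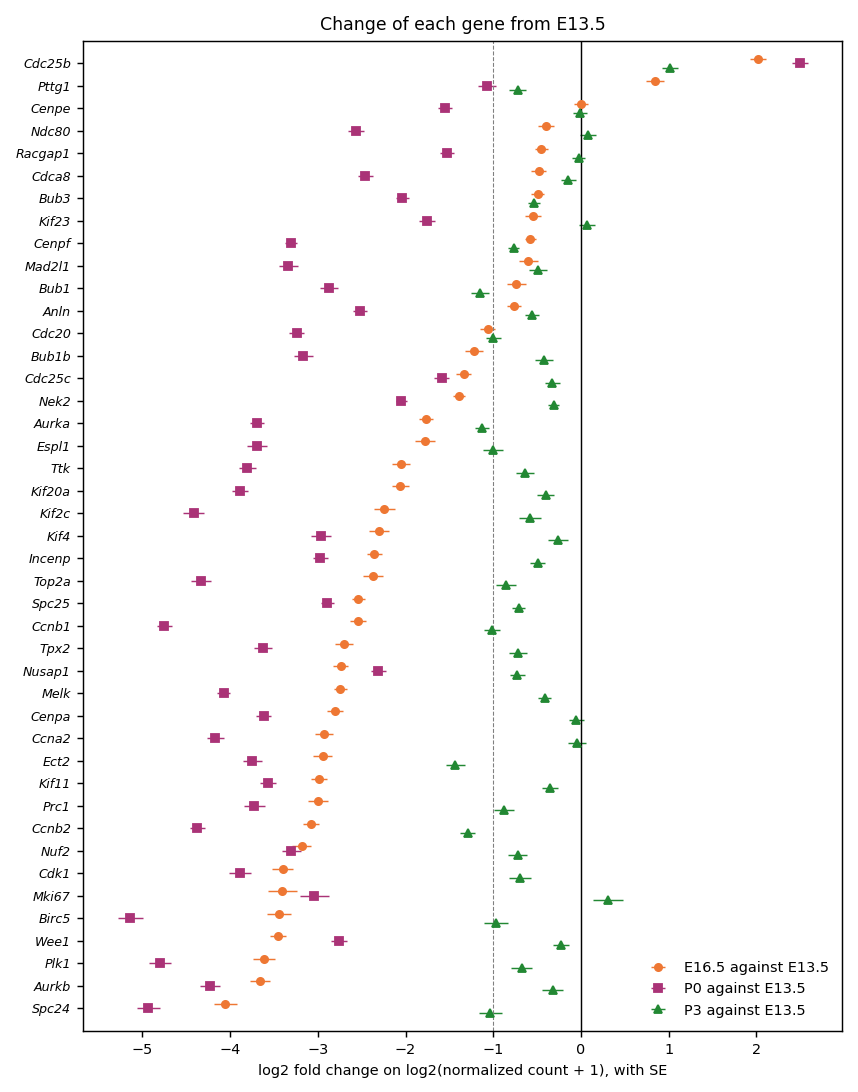
Log2 fold change of each gene at E16.5, P0 and P3 against E13.5 (points, with SE from limma; all stages share the 3 E13.5 libraries), sorted by the E16.5 value; the dashed line marks a 2-fold fall. At P0 only Cdc25b is above 0, whereas at E16.5 a run of genes from Cenpe to Anln lies within 2-fold of E13.5.

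The general proliferation markers moved with the rest. Mki67, which coats mitotic chromosomes, had 1831, 1515 and 1698 normalized counts at E13.5, 128, 219 and 139 at E16.5, 228, 192 and 190 at P0, and 1889, 1995 and 2374 at P3. Its E16.5 and P0 libraries overlapped, and the difference between them did not pass the test (log2 fold change 0.36, limma adjusted p 0.0698). Top2a, the topoisomerase that untangles sister chromosomes, had 31434 to 35924 at E13.5, 6266 to 6872 at E16.5, 1324 to 2058 at P0 and 17455 to 19509 at P3. Top2a thus fell at both steps, by 2.37 and then by 1.97 on the log2 scale, and rose by 3.48 at P3.

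Among the genes of the CDK1 switch, 6 of 7 fell at E16.5 and 6 of 7 rose at P3. Cdk1, the kinase, had 11448 to 11604 normalized counts at E13.5, 1039 to 1174 at E16.5, 588 to 902 at P0 and 6684 to 7530 at P3. The B-type cyclin Ccnb1 had 84999, 84557 and 81325 at E13.5, 14883, 15063 and 13209 at E16.5, 3618, 3049 and 2719 at P0, and 42846, 42221 and 39135 at P3. No 2 stages overlapped for Ccnb1, which fell by 2.54 on the log2 scale at E16.5 (SE 0.089, limma adjusted p 1.53e-13) and by a further 2.21 at P0. Of its 50-base words, 23.4% also occur in transcripts of other genes, such as the pseudogene Ccnb1-ps, so its level is less certain. Ccnb2, its close relative, fell by 3.08 at E16.5 and rose by 3.08 at P3, reaching 40.9% of its E13.5 level. Ccna2, the A-type cyclin, rose by 4.12 at P3 and differed from E13.5 by -0.05 (adjusted p 0.698), or by 0.28 (adjusted p 0.00919) with equal library totals.

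The inhibitor of the switch fell with the kinase it restrains. Wee1, which phosphorylates CDK1 to hold it inactive, had 13366, 12066 and 12008 normalized counts at E13.5, 1143, 1097 and 1181 at E16.5, 2142, 1782 and 1621 at P0, and 10038, 10750 and 11213 at P3. Wee1 fell by 3.45 at E16.5 on the log2 scale (limma adjusted p 6.34e-15) and rose by 0.69 at P0, so that its lowest stage was E16.5. Of the 2 members that encode phosphatases able to undo this mark, Cdc25c fell by 1.34 at E16.5, the smallest change among the 6 that fell. Cdc25c rose from a mean of 599 ± 53.0 at P0 to 1434 ± 44.0 at P3 (SD, n = 3). Its difference between E16.5 and P0, -0.25, turned to 0.41 with equal library totals and to 0.01 with median-of-ratios factors. Cdc25b was the only member that exceeded its E13.5 level at P0 and the only one that fell from P0 to P3, although Pttg1 fell there too with equal library totals, where its P0 difference from E13.5 was 0.10. It had 536, 476 and 494 normalized counts at E13.5, 2146, 2149 and 1827 at E16.5, 2996, 2866 and 2659 at P0, and 1000, 996 and 1046 at P3, with no overlap between stages. Cdc25b rose by 2.02 at E16.5 (SE 0.088, limma adjusted p 2.00e-12) and by 0.48 at P0, and fell by 1.48 at P3. Per kilobase of exon, Cdc25b was the lowest of the 43 genes at E13.5 (134.7 normalized counts per kb) and the seventh highest at P0 (762).

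**Figure D3:**
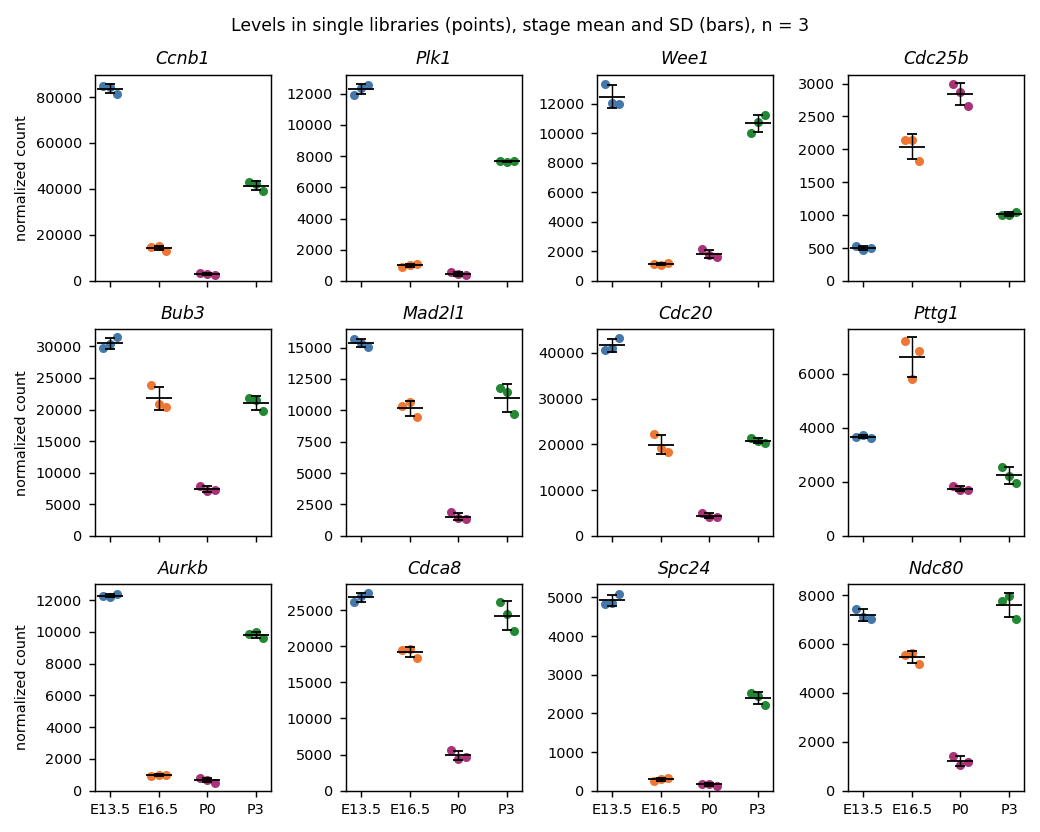
Normalized counts of 12 genes in each library (points) with the stage mean and SD (bars, n = 3), each axis from 0. Ccnb1, Plk1, Wee1, Aurkb and Spc24 are near the floor of their axis at E16.5, while Bub3, Mad2l1, Cdca8 and Ndc80 are well above it, and Cdc25b and Pttg1 are above their E13.5 level.

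All 4 mitotic kinases fell at E16.5, fell again at P0 and rose at P3. Plk1, the polo-like kinase that acts from mitotic entry to exit, had 11926, 12371 and 12561 normalized counts at E13.5, 910, 1011 and 1089 at E16.5, 568, 430 and 349 at P0, and 7708, 7633 and 7683 at P3. Its fall to 3.65% of the E13.5 level at P0 was followed by a rise of 4.12 on the log2 scale. Aurka, which acts at spindle poles, fell more evenly, by 1.77 and then by 1.92, and stood at 45.8% of its E13.5 level at P3. Melk fell by 2.74 at E16.5, and Nek2, which acts on the centrosome, by 1.39. The further difference of Nek2 at P0, -0.66, turned to 0.01 with equal library totals.

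All 5 spindle checkpoint genes fell at E16.5, 3 of them by less than 2-fold, and all 5 fell further at P0. Mad2l1, which encodes the checkpoint protein that binds and restrains CDC20, had 15718, 15334 and 15053 normalized counts at E13.5, 10337, 10625 and 9500 at E16.5, 1861, 1387 and 1363 at P0, and 11794, 11470 and 9714 at P3. It fell by 0.60 at E16.5 (SE 0.10, limma adjusted p 5.75e-05) and by 2.74 at P0 (adjusted p 2.88e-12). Its P3 libraries overlapped those of E16.5. Bub3, a scaffold of the same complex, fell by 0.49 and then by 1.55, from a mean of 30506 ± 873 at E13.5 to 21745 ± 1890 and 7426 ± 442 (SD, n = 3). With equal library totals the first of these differences turned to a value of 0.01 above E13.5. Bub1, a checkpoint kinase, fell by 0.74 and then by 2.14, and was still at 44.9% of its E13.5 level at P3, below its E16.5 level. Bub1b, its relative in the inhibitory complex, fell by 1.22 and then by 1.94. Ttk, the kinase that starts checkpoint signalling, fell most of the 5, by 2.05 at E16.5, from 8326 to 8974 normalized counts down to 1896 to 2402.

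Of the genes that act at the start of anaphase, Cdc20, which activates the anaphase-promoting complex, fell by 1.06 at E16.5 and by 2.18 at P0. It had 40706, 41070 and 43184 normalized counts at E13.5, 22336, 19222 and 18376 at E16.5, 5044, 4204 and 4031 at P0, and 21373, 20852 and 20244 at P3. Its E16.5 and P3 libraries overlapped, with a difference of 0.06 that turned to -0.11 with equal library totals and to -0.12 with median-of-ratios factors. Per kilobase of exon, Cdc20 was the highest of the 43 genes at each of the 4 stages. Other genes share 10.4% of its 50-base words. Pttg1, or securin, the inhibitor of separase, was the other member that rose at E16.5. It had 3646, 3729 and 3628 at E13.5, 7216, 5781 and 6817 at E16.5, 1846, 1683 and 1712 at P0, and 2563, 2215 and 1937 at P3. Pttg1 rose by 0.84 (SE 0.098, limma adjusted p 6.20e-07) and then fell by 1.91, and its difference at P3, 0.35, turned to -0.49 with equal library totals and to -0.09 with median-of-ratios factors. Espl1, the separase that cuts cohesin, fell by 1.78 at E16.5 and by 1.91 at P0. Within a library, securin per kilobase was 3.11 to 3.77 times separase at E13.5 and 16.3 to 27.6 times at E16.5.

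Partners within 1 protein complex parted at E16.5. In the chromosomal passenger complex, which corrects wrong attachments and guides cytokinesis, Aurkb, the kinase, had 12264, 12179 and 12394 normalized counts at E13.5 and 913, 1008 and 996 at E16.5. Its partner Cdca8, or borealin, had 26110, 26932 and 27301 at E13.5 and still 19490, 19659 and 18408 at E16.5. Aurkb fell by 3.66 (SE 0.12, limma adjusted p 4.71e-14), Birc5, or survivin, by 3.44 and the scaffold Incenp by 2.36. Cdca8 fell by 0.48 (SE 0.085, adjusted p 6.84e-05), a direction that turned with equal library totals, where Cdca8 was higher at E16.5 by 0.02. At P0 it was Cdca8 that fell most, by 1.98, against falls of 1.70 for Birc5, 0.57 for Aurkb and 0.62 for Incenp; with equal totals Aurkb and Incenp were instead higher at P0 by 0.09 and 0.05. By P3 all 4 had risen, Birc5 by 4.17, the largest rise of the 43 genes.

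The kinetochore genes parted in the same way. Ndc80 had 7440, 7097 and 7009 normalized counts at E13.5, 5546, 5636 and 5185 at E16.5, 1441, 1061 and 1165 at P0, and 7776, 7958 and 7016 at P3. As a protein, NDC80 forms the microtubule-binding rod of the kinetochore with NUF2, SPC24 and SPC25. Nuf2 had 10240, 9712 and 9515 at E13.5, 983, 1217 and 1053 at E16.5, 1110, 1034 and 858 at P0, and 6482, 6209 and 5245 at P3. Spc24 had 4821, 4863 and 5089 at E13.5, 255, 301 and 336 at E16.5, 186, 173 and 128 at P0, and 2536, 2451 and 2221 at P3. Spc24 thus fell by 4.05 (SE 0.13, limma adjusted p 5.72e-14), the largest fall of the 43 genes at E16.5, Nuf2 by 3.18 and Spc25 by 2.54, where Ndc80 fell by 0.40 (SE 0.094), a direction that turned with equal library totals, where Ndc80 was higher at E16.5 by 0.11. From E16.5 to P0 Ndc80 fell most of the 4, by 2.17, and Spc24 fell by 0.88. Nuf2 did not pass the test there (-0.12, adjusted p 0.348; 0.54 with equal totals and 0.14 with median-of-ratios factors), and Spc25 fell by 0.35, a direction that turned with equal totals, where Spc25 was higher at P0 by 0.31.

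Other genes of the centromere showed both behaviours. Cenpe, the kinesin that carries chromosomes to the spindle equator, had 6101, 5963 and 6508 normalized counts at E13.5 and 5754, 6757 and 6044 at E16.5. These libraries overlapped, with a difference of -0.00 (limma adjusted p 0.970), and it was 0.08 with TMM factors (adjusted p 0.318). Cenpe was higher at E16.5 with median-of-ratios factors (0.22, adjusted p 0.0139) and with equal library totals (0.50, adjusted p 1.11e-05). Cenpe then fell by 1.55 at P0. Cenpf, a large kinetochore protein, fell by 0.58 and then by 2.73. Cenpa, the histone that marks centromeres, fell by 2.80 at E16.5 and by 0.81 at P0, and rose by 3.56 at P3. At P3 Cenpa differed from E13.5 by -0.05 (adjusted p 0.610), or by 0.28 (adjusted p 0.00566) with equal totals.

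Ratios within a library do not depend on the size factors and showed the same unequal change. Per kilobase of exon, Nuf2 was 1.39 to 1.41 times Ndc80 at E13.5 and 0.181 to 0.221 times at E16.5. Spc24 was 1.64 to 1.83 times Ndc80 at E13.5 and 0.116 to 0.164 times at E16.5, and Aurkb was 0.795 to 0.825 times Cdca8 at E13.5 and 0.0823 to 0.0951 times at E16.5. By P3 the ratio of Nuf2 to Ndc80 was 0.766 to 0.854 and that of Aurkb to Cdca8 was 0.664 to 0.761. A ratio shows that the partners changed unequally, not which of them changed. These pairs were chosen after their values were seen.

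**Figure D4:**
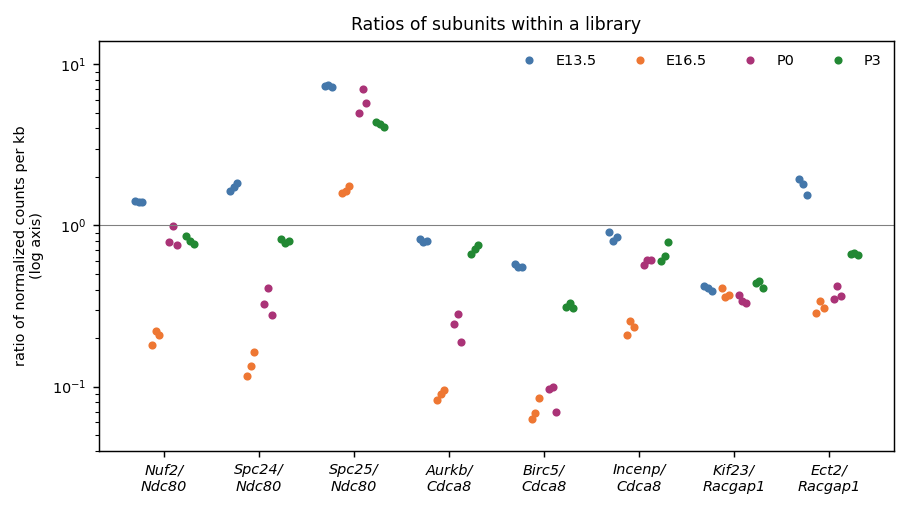
Ratio of normalized counts per kilobase of exon for pairs of partner genes in each library (points, coloured by stage; log axis). For the NDC80 and passenger complex pairs the E16.5 libraries lie below all E13.5 libraries, whereas Kif23 to Racgap1 stays between 0.331 and 0.450 in all 12 libraries.

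The spindle motors and microtubule binders all fell at E16.5, by 2.24 to 2.99 on the log2 scale. Kif11, the motor that pushes spindle poles apart, had 9652 to 11409 normalized counts at E13.5, 1164 to 1416 at E16.5, 784 to 931 at P0 and 7689 to 8458 at P3. Its further difference at P0, -0.58, turned to 0.09 with equal library totals. Kif2c, which removes wrongly attached microtubules, fell by 2.24 and again by 2.17, to 4.75% of its E13.5 level. Kif4, a chromosome-bound kinesin on the X chromosome, fell by 2.30, and Tpx2, which activates Aurora A, by 2.70. Nusap1, a microtubule bundler, fell by 2.74 and then rose by 0.43 at P0, with 1600 to 1766 normalized counts at E16.5 and 2014 to 2481 at P0.

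Among genes of the central spindle and cytokinesis, the 2 subunits of centralspindlin fell together at E16.5, by less than their partners Ect2 and Prc1 did. Racgap1 had 10836, 10494 and 10967 normalized counts at E13.5, 7860, 8479 and 7323 at E16.5, 4130, 3683 and 3427 at P0, and 10346, 10492 and 10892 at P3. Kif23 had 5061, 4811 and 4783 at E13.5, 3599, 3425 and 3023 at E16.5, 1699, 1400 and 1266 at P0, and 5083, 5275 and 4995 at P3. Racgap1 fell by 0.45 (SE 0.075, limma adjusted p 3.71e-05) and Kif23 by 0.55 (adjusted p 5.45e-05), but with equal library totals Racgap1 was higher at E16.5 by 0.06. The cytokinesis activator Ect2, which binds RACGAP1, fell by 2.95 (SE 0.10, adjusted p 1.73e-13), and the microtubule bundler Prc1 fell from 16248 ± 810 to 2037 ± 280 (SD, n = 3). Per kilobase, Ect2 was 1.56 to 1.94 times Racgap1 at E13.5 and 0.288 to 0.341 times at E16.5. Anln, which organises the contractile ring, fell by 0.76, and Kif20a by 2.06. Reads of Kif20a are uncertain because 25.2% of its 50-base words lie in transcripts of other genes on the opposite strand, chiefly Cdc23, and the strand setting is not given in the sources used here. Words shared with other genes on either strand made up 14.5% for Kif4, 11.9% for Cdc25c and 11.4% for Ccna2.

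Drawing a line at a 2-fold fall, 31 members fell by at least that much at E16.5, where 22.1% of all genes did, 10 stayed within it and 2 rose. The 10 were Bub1, Bub3, Mad2l1, Cdca8, Cenpe, Cenpf, Ndc80, Kif23, Racgap1 and Anln. Nearest the line among the 10 was Anln at -0.76, and nearest among the 31 were Cdc20 at -1.06 and Bub1b at -1.22. The line is a description: with equal library totals Cdc20, Bub1b, Nek2 and Cdc25c also came within 2-fold and the number below the line was 27. The 10 were at a median of 69.9% of their E13.5 level at E16.5 and 17.8% at P0, and the 31 at 14.95% and 7.66%. The difference at E16.5 follows from how the line was drawn. All 10 fell between E16.5 and P0, by 1.08 for Racgap1 to 2.74 for Mad2l1, where 33.4% of all genes fell. That comparison uses the same E16.5 libraries as the line.

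Across the 43 members, the size of the change at E16.5 and at P3 went together, with a Pearson correlation of -0.792 and a Spearman correlation of -0.699 between the log2 fold changes of E16.5 against E13.5 and of P3 against P0. The comparisons share no library, but the genes are not independent of each other, and no p is given. Compared with E13.5, 33 members were lower at P3 and 1, Cdc25b, was higher, where 31.2% of all genes were lower and 39.2% higher. The 9 that did not pass the test were Mki67, Ccna2, Cdca8, Cenpa, Cenpe, Ndc80, Kif4, Kif23 and Racgap1. Those furthest below E13.5 at P3 were Ect2 (-1.43), Ccnb2 (-1.29), Bub1 (-1.15) and Aurka (-1.13). With equal library totals 23 were lower and 9 higher, where 4898 of the 23221 genes tested were lower and 10871 higher.

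A feature that the choice of members did not use is the sequence around their transcription starts. RefSeq promoters of GRCm38.p6, from 250 bases before to 50 after the start, were matched for 35 of the 43 genes, with none matched for Aurkb, Ccna2, Cdc25c, Incenp, Kif20a, Spc24, Tpx2 and Wee1. For a member the listed start nearest its GENCODE gene start was used, whereas for all genes the first listed start was used. The start used lay 3867 bases from the GENCODE start for Kif2c and 2394 for Cdca8. It lay 328 bases away for Kif4, 270 for Pttg1 and 169 for Mad2l1, and all of these are counted below. The letters TTTGAA, the usual CHR, were present on either strand in 24 of 35 (68.6%), against 18.1% of the promoters of 27025 genes. Counting also the variants TTTAAA and TTCGAA, which read the same on both strands, the numbers were 29 of 35 (82.9%) against 29.0%. A CCAAT box on either strand was present in 26 (74.3%) against 37.9%, and both elements in 25 (71.4%) against 11.5%. In the 150 bases before the start only, TTTGAA was present in 9 of 35 (25.7%, against 9.24% of all) and CCAAT in 26 (against 25.3%), so many of the CHR letters lay at or after the start.

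The stretches below run from 110 bases before to 30 after the start of 7 genes, on the strand of the gene, with CHR letters and CCAAT (or ATTGG, its other strand) in capitals. Cdk1 and Ccnb2 stand for genes that fell steeply at E16.5, Racgap1 for those that stayed within 2-fold, Ndc80, Nuf2 and Spc25 for partners that parted, and Cdc25b for the gene that rose.
Cdk1 (chr10:69352883-69353022, - strand): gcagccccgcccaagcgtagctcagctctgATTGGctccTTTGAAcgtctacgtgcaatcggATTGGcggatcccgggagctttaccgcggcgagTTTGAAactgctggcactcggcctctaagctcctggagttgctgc
Ccnb2 (chr9:70421525-70421664, - strand): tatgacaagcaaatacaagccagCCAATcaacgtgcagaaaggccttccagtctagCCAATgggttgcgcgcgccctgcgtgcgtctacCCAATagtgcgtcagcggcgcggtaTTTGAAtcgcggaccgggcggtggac
Racgap1 (chr15:99651627-99651766, - strand): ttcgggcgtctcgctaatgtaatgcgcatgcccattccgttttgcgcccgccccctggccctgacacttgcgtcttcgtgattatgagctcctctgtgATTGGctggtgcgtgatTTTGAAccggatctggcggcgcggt
Ndc80 (chr17:71526828-71526967, - strand): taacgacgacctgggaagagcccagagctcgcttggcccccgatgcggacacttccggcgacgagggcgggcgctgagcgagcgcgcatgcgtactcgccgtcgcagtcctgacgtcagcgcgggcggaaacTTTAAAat
Nuf2 (chr1:169531435-169531574, - strand): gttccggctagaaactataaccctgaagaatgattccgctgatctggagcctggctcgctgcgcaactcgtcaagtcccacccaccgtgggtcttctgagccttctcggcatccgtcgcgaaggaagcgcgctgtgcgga
Spc25 (chr2:69206184-69206323, - strand): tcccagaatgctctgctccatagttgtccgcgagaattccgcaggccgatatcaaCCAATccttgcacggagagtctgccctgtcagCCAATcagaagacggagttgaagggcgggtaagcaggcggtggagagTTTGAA
Cdc25b (chr2:131186838-131186977, + strand): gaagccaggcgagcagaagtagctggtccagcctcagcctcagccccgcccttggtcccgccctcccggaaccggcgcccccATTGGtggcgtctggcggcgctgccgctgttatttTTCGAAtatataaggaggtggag

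Promoters with and without the letters occurred among genes of each behaviour at E16.5. CHR letters were present in 19 of the 23 promoters matched among genes that fell at least 2-fold and in 9 of the 10 of genes that stayed within it. Nuf2, which fell steeply, and Mad2l1, which did not, both lacked them in this window, and Racgap1 carries TTTGAA 6 bases after its start much as Ccnb2 does at 5. Of the 2 genes that rose, Cdc25b holds TTCGAA at 8 and Pttg1 has no CHR letters in this window. For Mad2l1 and Pttg1 the window did not reach the GENCODE start, so letters near that start were not searched. A match of letters is a description, not a binding site.

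**Figure D5:**
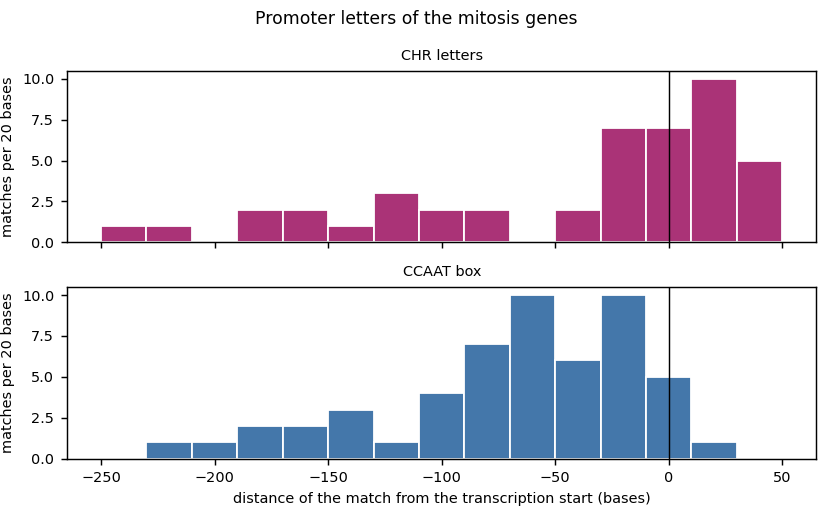
Number of matches to the CHR letters (upper) and to CCAAT (lower) in 20-base steps of distance from the transcription start, over the 35 matched promoters. CHR matches crowd around and just after the start, and most CCAAT matches lie upstream of it.

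The pathway beyond the 43 genes was examined with 131 other genes of mitosis, of which 128 passed the filter. Between E13.5 and E16.5, 107 fell and 17 rose, with a median log2 fold change of -1.11, and between P0 and P3 117 rose and 5 fell, with a median of 1.68. Among all genes tested, 34.6% fell and 45.5% rose in the first comparison, with a median of 0.31. In the second, 40.1% rose and 36.4% fell, with a median of 0.05. Of the other centromere and kinetochore genes, 27 of 29 fell at E16.5 and all 29 rose at P3. Of the anaphase-promoting complex and its partners, 15 of 17 fell and 17 of 17 rose, though with smaller medians of -0.91 and 1.16. The largest falls at E16.5 were in Fbxo5, an inhibitor of that complex (9109 ± 46.5 to 444 ± 76.3 normalized counts, SD, n = 3), Ube2c, its ubiquitin-conjugating enzyme (25431 ± 339 to 1861 ± 236), and Gmnn, or geminin, which blocks renewed replication licensing (8353 ± 104 to 865 ± 67.4). The largest rises at P3 were in Cenpm and Cenph, subunits of the inner kinetochore (4.17 and 3.73 on the log2 scale), and in Cdca5, or sororin, which protects cohesion (3.53).

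The factors that drive mitotic transcription were among the genes that changed. Mybl2, or B-MYB, which joins MuvB to activate late cell cycle genes, had 18813 to 19922 normalized counts at E13.5, 3508 to 3693 at E16.5, 750 to 999 at P0 and 6210 to 6926 at P3. Foxm1, the next activator in that sequence, had 1667 to 1799, 579 to 697, 225 to 325 and 2033 to 2553 at the same stages. Both fell and then rose without overlap between consecutive stages, and Foxm1 alone of the pair exceeded its E13.5 level at P3 (log2 fold change 0.34, limma adjusted p 0.0246), while Mybl2 stood at 33.5% of it. Lin54, the MuvB subunit that contacts the CHR, had 1421 to 1503 at E13.5, 1143 to 1334 at E16.5, 1079 to 1222 at P0 and 2028 to 2384 at P3. Its fall of 0.26 at E16.5 (adjusted p 0.0130) turned to a rise of 0.24 with equal library totals. Lin54 then rose by 0.93 at P3, to 150% of its E13.5 level, but with equal totals its difference from P0 was 0.09 (adjusted p 0.370).

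A last list held 11 relatives of the mitosis genes, among them germ line or meiotic forms such as Ccna1, Ccnb3 and Aurkc and other paralogues such as Plk2, Plk3, Nek1 and Kif2a. Of these 11, 8 rose and 3 fell at E16.5, where 45.5% of all genes rose and 34.6% fell. At P3, 4 rose and 4 fell, where 40.1% and 36.4% of all genes did. Ccna1, the A-type cyclin of the male germ line, rose from 41.9 ± 5.21 to 224 ± 17.0 normalized counts at E16.5 and fell from 415 ± 29.1 at P0 to 55.9 ± 8.13 at P3. Ccnb3, a B-type cyclin of meiosis, rose from 99 to 123 at E13.5 to 714 to 894 at E16.5, and its rise of 0.62 at P3 turned to -0.22 with equal library totals. Cdc20b, a relative of Cdc20, rose at E16.5 from 1 to 5 reads per library to 674 ± 99.0 normalized counts, and fell by 1.05 at P3. Aurkc, the Aurora kinase of meiosis, fell by 1.83 at E16.5 and by 1.41 at P3, opposite in the latter to Aurka and Aurkb.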

How the data were processed

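RNA was sequenced from 12 samples; libraries were prepared with SMART-seq v4 and TruSeq mRNA kits, per the labels' protocols. In the deposited signal, the reads of each gene had been divided by a size factor common to the library. The submitters' processing notes name bcl2fastq 2.20, cutadapt 1.18, HISAT2 2.1.0, featureCounts 1.5.2 and DESeq2 1.26.0 with mm10/GRCm38; annotation release, strand setting and handling of multiply matching reads are not given in the sources used here. Dividing each library by its smallest value gave whole numbers for 100% of values (tolerance 0.001), which recovered the reads. Symbols matched 55141 of 55487 identifiers. Positions, exon lengths and words came from GENCODE M21 (GRCm38).

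Column heads carry stage and the numbers 1, 3 and 4, not the replicate numbers of the titles, so columns were assigned to stages only. Values were tested as log2(normalized count + 1), using limma 3.58.1 (R 4.3.3, eBayes with trend, 8 residual degrees of freedom) over all 22384 genes with at least 10 in at least 3 libraries. Fold changes are on that scale. Recovered reads were tested with edgeR 4.0.16 and DESeq2 1.42.0, which called 17851 and 17806 genes between E13.5 and E16.5, where limma called 17932. The methods were tested on simulated data. Few genes were changed there, and only at P0, so that test does not bear on the choice of scaling. The alternatives are in the closing section. Members, lists and tests were chosen with earlier results of these data known. Named beyond the members are, in the pathway list, the 3 highest and 3 lowest log2 fold changes for each of E13.5 to E16.5 and P0 to P3 (past the threshold, libraries not overlapping, higher stage averaging 100 or more), and Foxm1, Mybl2 and Lin54. Python 3.11.15 with pandas 2.3.3 and matplotlib 3.10.9 did the rest. Counting error is small at these depths, but amplified reads without molecular identifiers are not independent molecules.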

Additional observations from a re-analysis of the deposited data

How the results depend on the processing

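With TMM factors, median-of-ratios factors and equal library totals, the median log2 fold change of the 43 genes from E13.5 to E16.5 was -2.22, -2.08 and -1.80, from P0 to P3 2.52, 2.25 and 1.85, and from E13.5 to P0 -3.11, -2.83 and -2.14. With the latter pair of scalings it was -0.98 and -0.58 from E16.5 to P0, 1.34 and 1.35 from E16.5 to P3, and -0.52 and -0.23 from E13.5 to P3. Equal totals gave 7 genes that rose from E16.5 to P0, 2 that fell from P0 to P3 and 9 higher at P3 than at E13.5. Of all 23221 genes tested with equal totals, 12743, 13565 and 10871 did so. Requiring a change of 1 or more on the log2 scale left 1 that rose from E13.5 to E16.5, 0 that rose and 25 that fell from E16.5 to P0, 2 lower at P3 than at E16.5 and 8 lower at P3 than at E13.5. In limma with only those stages, edgeR and DESeq2, 2 genes in place of 1 were higher at P3 than at E13.5. The 150 bases before the start alone held TTTGAA in 9 and any CHR letters in 12 promoters.

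Leaving out each library in turn gave medians of -2.41 to -2.22 (E13.5 to E16.5), -1.37 to -1.15 (E16.5 to P0), 2.61 to 2.75 (P0 to P3), -3.38 to -3.26 (E13.5 to P0), 1.497 to 1.63 (E16.5 to P3) and -0.59 to -0.55 (E13.5 to P3). The number higher at P3 than at E13.5 was then 1 to 2, with 2 without E16.5 library 3. Same-numbered libraries did not deviate together (correlations of -0.0356 to 0.0423 over 18 pairs), and with the column number as a replicate block 34 genes, in place of 33, were lower at P3 than at E13.5, while no other count of the 43 genes moved.

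Single genes changed direction in 49 cases. Of these, 29 came with equal totals, 8 with median-of-ratios factors, 3 with TMM factors and the rest on leaving out a library. From E13.5 to E16.5 Cenpe was at 0.083, 0.22 and 0.50 with TMM factors, median-of-ratios factors and equal totals, and ran from -0.069 to 0.047 as libraries were left out. With equal totals Cdca8 was at 0.025, Lin54 at 0.24, Bub3 at 0.015, Racgap1 at 0.055 and Ndc80 at 0.11. From E16.5 to P0 equal totals put Nuf2 at 0.54, Nek2 at 0.0050, Spc25 at 0.31, Cdk1 at 0.18, Aurkb at 0.094, Cdc25c at 0.41, Incenp at 0.048 and Kif11 at 0.085, and median-of-ratios factors put Nuf2 at 0.14 and Cdc25c at 0.0075. From P0 to P3 Pttg1 was at -0.091 and -0.49 under these scalings, and Ccnb3 at -0.22 with equal totals. Equal totals put Pttg1 at 0.099 from E13.5 to P0. From E16.5 to P3 Cdc20 was at -0.12 and -0.11 and Mad2l1 at -0.072 and -0.067 with median-of-ratios factors and equal totals. Leaving out libraries gave -0.088 to 0.026 for Bub3 and -0.058 to 0.058 for Cenpe in that comparison. From E13.5 to P3 Cenpe was at 0.020, 0.028 and 0.32 and Racgap1 at 0.0054, 0.014 and 0.30 with TMM factors, median-of-ratios factors and equal totals. Equal totals put Nek2 at 0.018, Kif4 at 0.066, Ccna2 at 0.28, Cdca8 at 0.18, Cenpa at 0.28, Wee1 at 0.10, Aurkb at 0.0038 and Cdc25c at 6.93e-05. Leaving out libraries gave -0.038 to 0.026 for Cenpe and -0.12 to 0.030 for Cenpa there. The lowest read number of any of the 43 genes in a library was 134, for Mki67.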
